A study of Homo sapiens with 5 samples.

Results

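The genes described here are 6 that earlier work on acute lymphoblastic leukaemia had tied to disease in the central nervous system (CNS) or to relapse: IL15, IL15RA, SPP1, ZAP70, CASP8AP2 and NOTCH1. They were fixed by name and matched by Ensembl identifier, and all 6 were found among the 65217 human gene identifiers of the gene table. All 6 also passed the filter on low counts that left 20419 genes for testing. In leukaemia cells taken from the brain, NOTCH1 and IL15 were higher and SPP1 was lower than in cells taken from the spleen, while IL15RA, ZAP70 and CASP8AP2 did not pass the test.

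The 6 genes belong to separate pathways. IL15 encodes a cytokine that is presented to neighbouring cells while bound to its private receptor chain, the product of IL15RA. It signals in lymphocytes through shared receptor chains, JAK kinases and STAT transcription factors. SPP1 encodes osteopontin, a secreted phosphoprotein that binds integrins and CD44. ZAP70 is a tyrosine kinase best known from T cell receptor signalling, and SYK is its relative in B cells. CASP8AP2 encodes FLASH, a large scaffold named for its link to caspase-8 that is also needed to process replication-dependent histone RNA. NOTCH1 is a cell surface receptor that is cut by proteases on ligand binding and whose released tail acts with RBPJ and Mastermind proteins in transcription.

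REH, an established precursor B cell line with the ETV6-RUNX1 (TEL-AML1) fusion, was transplanted into NSG mice (NOD.Cg-PrkdcscidIl2rgtm1Wjl/SzJ, 6 to 10 weeks old). These hosts carry the scid allele of Prkdc and a null allele of the mouse gene for the receptor chain that interleukin 15 shares with other cytokines. Mice of this strain lack mature T, B and NK cells, and the strain was the same in both groups. Cells were taken from the leptomeninges, called brain here, or from the spleen, purified on a Ficoll density gradient, and RNA of 5 mice was pooled per library. Brain had 3 libraries and spleen 2, prepared at different times, and the last spleen pool is not analysed here. All values come from 1 cell line and from pools, so the spread between libraries is not a spread between animals.

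Depth ran from 38387991 to 48764202 estimated counts on human genes per library. The mouse share of all estimated counts was 5.70%, 2.58% and 2.64% in the brain libraries and 6.33% and 8.87% in the spleen libraries. Of 10 B lineage markers, 9 were expressed and summed to between 6729 and 7010 CPM (counts scaled to a common library size) over the 5 libraries, and VPREB1 was at 0 counts in all 5. Human T cell markers summed to between 0.752 and 1.59 CPM, with CD3D at 0 counts in every library. Human macrophage markers summed to 69.7 to 98.0 CPM in brain and 66.9 to 84.7 in spleen. AIF1 alone gave 66.6, 66.7 and 91.2 CPM of this in brain and 81.6 and 63.1 in spleen. Of 6 tested, 1, CD68, was higher in brain (log2 fold change 1.98, edgeR adjusted p = 0.0335). Endothelial markers summed to 12.2 to 19.2 CPM in brain and 2.84 to 3.03 in spleen. Of the 3 tested, PECAM1 alone passed, higher in brain, at 13.4 ± 3.66 CPM against 1.43 ± 0.485 (log2 fold change 3.23, edgeR adjusted p = 0.000601), while CLDN5 and VWF did not pass and CDH5 and KDR had at most 6 counts. Fibroblast markers reached at most 2.55 CPM, and neural markers summed to 18.6 to 20.2 CPM in brain and 15.3 to 17.9 in spleen, with SNAP25 at 0. Their part in the results was not tested.

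Of the 6 genes, 2 were higher and 1 lower in brain by edgeR's quasi-likelihood test at an adjusted p under 0.05. Over all genes tested, 6.01% were higher and 3.5% lower by the same rule, 9.51% in both directions. The libraries of the 2 sites did not overlap for 3 of the 6 genes, the same 3 that passed, against 42.8% of all genes tested. Since RNA was measured in bulk, a lower level may be fewer expressing cells or less RNA per cell, which cannot be told apart. The plot of levels by library shows the separation for IL15, SPP1 and NOTCH1 and the overlap for the others.

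**Figure D1:**
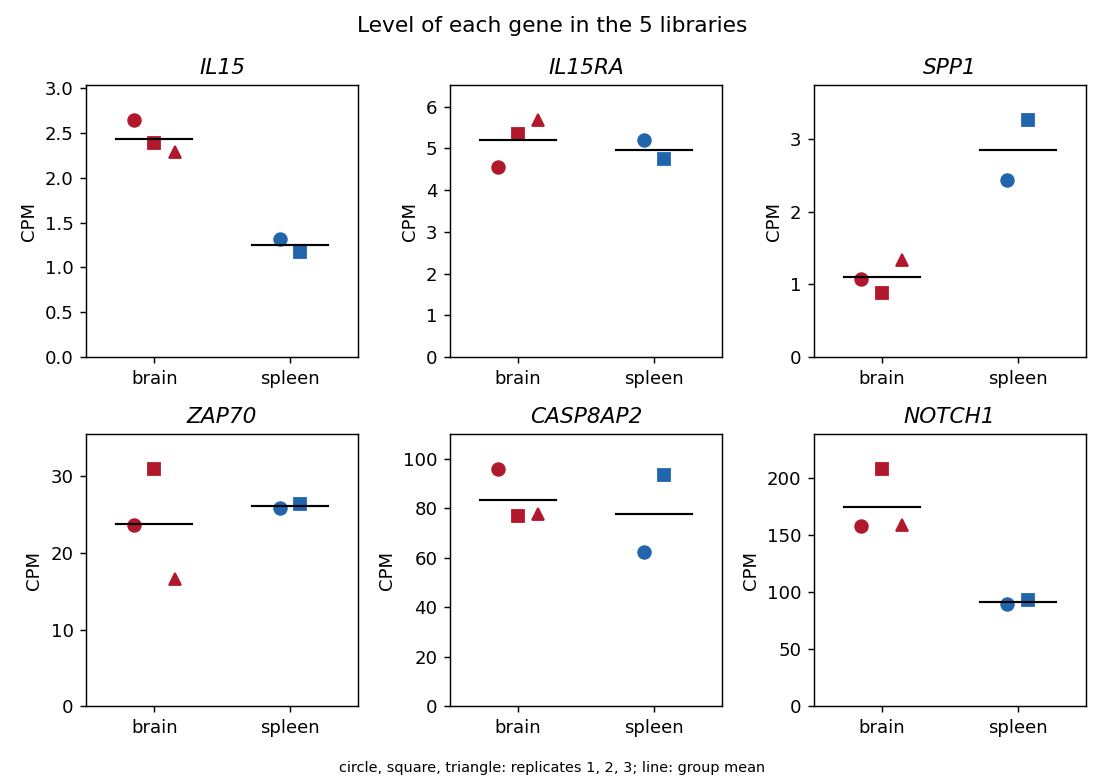
Level of the 6 genes in CPM (vertical axes from 0) in each brain (red) and spleen (blue) library, with symbols for replicates and a line at the group mean. Brain and spleen libraries are apart for IL15, SPP1 and NOTCH1 and overlap for IL15RA, ZAP70 and CASP8AP2.

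IL15 lies on chromosome 4 (ENSG00000164136, GRCh38 141636583 to 141733987, forward strand). It was expressed at a low level, in the 36.4th percentile of mean abundance among tested genes. The brain libraries held 103, 118 and 103 counts, and the spleen libraries 58 and 59. Every brain library lay above both spleen libraries, and the exact Poisson 95% intervals, which cover counting error only, reached down to 84.1 counts in brain and up to 76.1 in spleen. Mean levels were 2.44 ± 0.181 CPM (SD, n = 3) for brain against 1.25 ± 0.107 (n = 2) for spleen. The log2 fold change was 0.97 with SE 0.228, and edgeR's adjusted p was 0.0330. The fold of 1.95 had a 95% interval of 1.37 to 2.80. The call rested on all 5 libraries together: leaving out any 1 of them raised the adjusted p to between 0.0516 and 0.127, although the log2 fold change stayed between 0.88 and 1.05. With the mouse share of each library as a covariate the log2 fold change was 1.03 and the adjusted p 0.327.

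IL15 transcripts fall into 2 classes by their first coding exon, and the sequences are shown because the classes are defined by them. The models also differ outside these stretches, with 1447 bases in IL15-202 and 6026 in IL15-204, so the estimates do not rest on these stretches alone. Each is the stretch from the annotated start codon, in capitals, to the exon that both classes share. The long form begins in chr4:141719465-141719476 and goes on in chr4:141720469-141720566. The alternative form begins in chr4:141721149-141721177.
IL15-202 start: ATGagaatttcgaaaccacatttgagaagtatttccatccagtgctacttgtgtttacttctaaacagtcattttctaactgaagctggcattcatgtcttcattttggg
IL15-204 and IL15-207 start: ATGgtattgggaaccatagatttgtgcag
These coding starts, of 110 and 29 bases, are known to give precursors with a longer and a shorter signal peptide ahead of the same mature cytokine.

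The 3 transcript models with the long start (IL15-201, IL15-202 and IL15-208) summed to 44.1, 61.3 and 71.5 estimated counts in brain and 28.8 and 17.1 in spleen, or 1.13, 1.24 and 1.59 CPM against 0.656 and 0.339. All 3 brain libraries lay above both spleen libraries for this class. The models with the alternative start (IL15-203, IL15-204 and IL15-207) gave 1.48, 1.10 and 0.611 CPM in brain against 0.622 and 0.775 in spleen, where brain replicate 3 was the lowest of the 5 and the groups overlapped. The canonical IL15-202 alone was higher in every brain library, with up to 62.6 estimated counts there and up to 11.1 in spleen. The alternative class made up 56.1%, 46.8% and 27.0% of IL15 in brain and 47.7% and 65.5% in spleen, so its share was not separated by site. These estimates divide between 58 and 118 counts per library among 8 models and were not tested. A change limited to the long start is therefore not established.

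**Figure D2:**
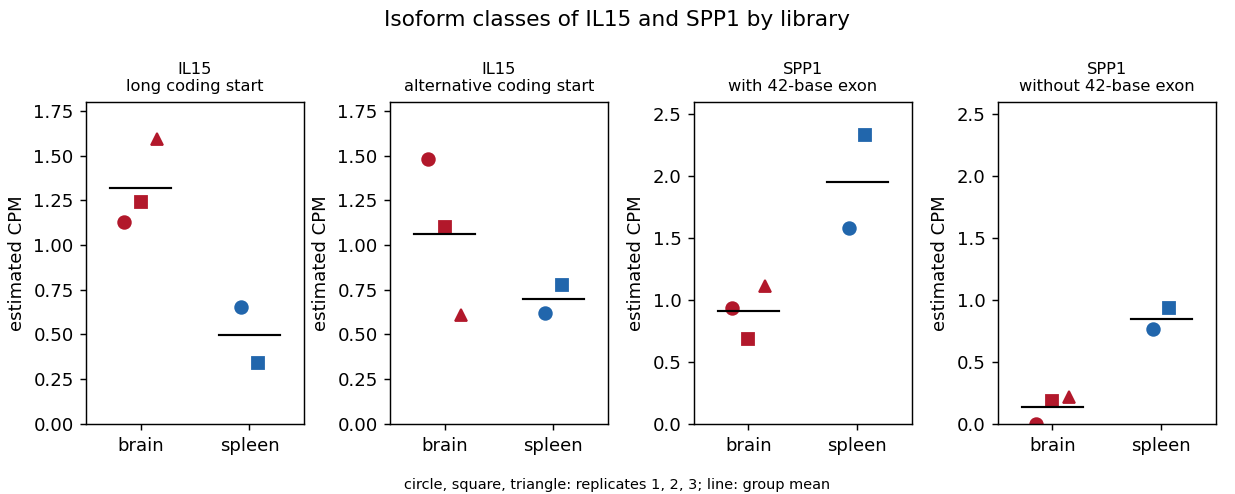
Estimated CPM (vertical axes from 0) of IL15 transcripts with the long or the alternative coding start and of SPP1 transcripts with or without the 42-base exon, in each brain (red) and spleen (blue) library, with a line at the group mean. Sites are apart for the long start of IL15 and for both SPP1 classes and overlap for the alternative start of IL15. Of all genes tested, 42.8% did not overlap, and no such share was computed for transcript classes. The class values rest on few counts and were not tested.

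IL15RA lies on chromosome 10 (ENSG00000134470, 5943639 to 5978187, reverse strand). Its counts were 178, 264 and 255 in brain and 228 and 239 in spleen. In CPM these were 4.56, 5.33 and 5.67 against 5.19 and 4.74, so brain replicate 1 was the lowest and brain replicate 3 the highest of all 5. The log2 fold change was 0.064 (SE 0.182, edgeR adjusted p = 0.875), with a 95% interval of the fold from 0.786 to 1.39. A change of 1.95-fold like the one in IL15 lies outside that interval. The sign was not stable: it was -0.00597 on the log2 scale with the replicate number as a block and -0.24 with the mouse share as a covariate. Replicate 3 exists only in brain, so in the blocked fit brain replicate 3 does not bear on the site change.

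Of 18 genes listed for interleukin 15 signalling 17 were tested. Of these 5 were higher in brain, IL15 itself among them, 0 lower and 12 not past the threshold. Over all genes tested 6.01% were higher and 3.5% lower. The median log2 fold change was 0.46, against 0.0066 over all genes tested. The 3 STAT genes of the list all passed as higher, STAT5B least firmly. STAT5A, a main mediator of this cytokine, had 25.8 ± 0.627 CPM in brain against 11.01 ± 1.62 in spleen (log2 fold change 1.22, SE 0.126, edgeR adjusted p = 0.000954). STAT3 had a log2 fold change of 0.62, and STAT5B one of 0.35. Of 2 survival genes downstream, BCL2 was higher, at 203 ± 4.86 against 148 ± 2.96 CPM, and MCL1 did not pass (log2 fold change 0.11, edgeR adjusted p = 0.598). The targets CISH and PIM1 did not pass either, with log2 fold changes of 0.60 and -0.13. STAT5A kept its call without any 1 library and with the mouse share as a covariate (adjusted p = 0.0352). STAT3 and BCL2 each lost theirs without 4 of the 5 libraries in turn (adjusted p up to 0.102 and 0.0819). STAT5B lost its call in 13 of 15 alternatives, among them each removal of 1 library, other scalings (adjusted p = 0.0576 and 0.0527) and the replicate block (0.0564). Calls in the list came to 1 or 2 when any single library was removed, and to 1 with the mouse share.

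The receptor side of the list was uneven in level. IL2RB, the chain that carries the signal together with the common chain, had 1, 0 and 1 counts in brain and 0 and 3 in spleen, and was too low to test. IL2RG, the common chain, had 117 ± 12.3 CPM in brain against 132 ± 6.13 in spleen and did not pass (log2 fold change -0.18, edgeR adjusted p = 0.371). The kinases JAK1 and JAK3 had log2 fold changes of 0.32 and 0.47 and did not pass (adjusted p = 0.0573 and 0.0787). JAK3 passed with the replicate block (adjusted p = 0.0381), without a filter on low counts (0.00595) and by DESeq2 (0.0364), and JAK1 passed with a stricter filter (0.0439) and by DESeq2 (0.0197).

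SPP1 lies on chromosome 4 (ENSG00000118785, 87975667 to 87983532, forward strand) and overlaps a non-coding gene on the other strand. It was the least abundant of the 6 in brain, with 42, 44 and 60 counts there and 107 and 164 in spleen. Both spleen libraries lay above all 3 brain libraries, and the Poisson intervals reached up to 77.2 counts in brain and down to 87.7 in spleen. Brain averaged 1.10 ± 0.223 CPM against 2.85 ± 0.577 for spleen (log2 fold change -1.37, SE 0.261, edgeR adjusted p = 0.0152). This is 2.59-fold higher in spleen, and 96.5% of tested genes changed by no more than this in either direction. Removing brain replicate 1, brain replicate 2 or spleen replicate 2 ended the call, at adjusted p = 0.0701, 0.0615 and 0.0573. It was also lost with the mouse share as a covariate (log2 fold change -1.14, adjusted p = 0.396).

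The SPP1 transcripts in these cells differ by a pair of optional coding exons, shown because the classes of isoforms are defined by them. The stretch joins the 81-base exon chr4:87980046-87980126, in lower case, to the 42-base exon chr4:87980393-87980434, in capitals. SPP1-203 has both, SPP1-201 lacks the exon in capitals, and SPP1-202 lacks the exon in lower case.
SPP1-203 optional exons: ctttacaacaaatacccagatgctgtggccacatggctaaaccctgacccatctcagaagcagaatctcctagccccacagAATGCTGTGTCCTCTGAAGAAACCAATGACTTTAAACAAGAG
SPP1-201 was at 0.1, 9.1 and 9.8 estimated counts in brain and at 33.5 and 47.3 in spleen. Transcripts with the exon in capitals (SPP1-202 and SPP1-203) summed to 36.4, 33.8 and 50.2 in brain and 69.2 and 117.8 in spleen. Both classes were lower in every brain library, as was SPP1 as a whole. The form without the 42-base exon made up 0.238%, 20.7% and 16.3% of SPP1 in brain and 31.3% and 28.6% in spleen, estimates that rest on few reads and were not tested.

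Among 14 genes of osteopontin, its receptors and its processing 9 were tested, and SPP1 was the 1 that passed, against 9.51% of all genes tested. ITGB1 and ITGA4, which encode integrin chains for osteopontin, were abundant and did not pass, with log2 fold changes of 0.23 and -0.35. CD44 was low and uneven, with 23, 9 and 67 counts in brain and 10 and 44 in spleen. Its change was 0.43 on the log2 scale (SE 0.777, edgeR adjusted p = 0.794). It turned to -0.58 when brain replicate 3 was removed and to -0.23 when spleen replicate 1 was. Under the replicate block, where brain replicate 3 does not bear on the site change, it was -0.52. ITGAV, ITGB3 and ITGB5 had at most 8 counts in any library.

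ZAP70 lies on chromosome 2 (ENSG00000115085, 97713576 to 97739862, forward strand). The brain libraries had 924, 1527 and 747 counts and the spleen libraries 1136 and 1332. In CPM these were 23.7, 30.9 and 16.6 against 25.9 and 26.4. Brain replicates 2 and 3 were the highest and the lowest of the 5, so the brain libraries enclosed the spleen libraries. The log2 fold change was -0.14 (SE 0.214, edgeR adjusted p = 0.746), with a 95% interval of the fold from 0.648 to 1.27. It turned to 0.057 without brain replicate 3 and to 0.0495 under the replicate block, where brain replicate 3 does not bear on the site change either. ZAP70 was present at these levels while the human T cell markers summed to no more than 1.59 CPM and NK cell markers to between 4.10 and 4.74 CPM in any library. CD247, a signalling chain of the T cell receptor that NK cells also use, was at 13.4 ± 1.10 CPM in brain against 14.5 ± 2.08 and did not pass. Models with a retained intron held 17.4% to 32.2% of its estimated counts, the lowest share in brain replicate 3.

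**Figure D3:**
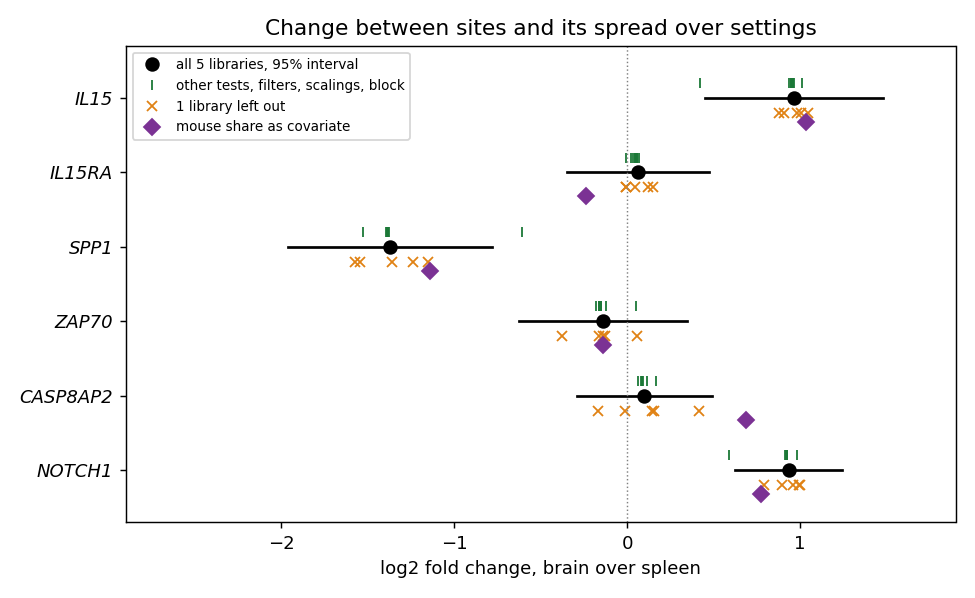
Log2 fold change, brain over spleen, of the 6 genes (black points with 95% intervals), with the values after leaving out 1 library, with the mouse share as a covariate, and under the other tests, filters, scalings and the replicate block. NOTCH1 and IL15 stay right of 0 and SPP1 left of 0 in every setting drawn, while the sign of IL15RA, ZAP70 and CASP8AP2 varies.

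In the list of ZAP70 and antigen receptor signalling 19 of 21 genes were tested (median log2 fold change -0.13). Of these 1 was higher, 4 were lower and 14 did not pass, against 6.01% higher and 3.5% lower over all genes tested. The higher gene was LCK, the Src family kinase that activates ZAP70 in T cells, at 13.5 ± 1.45 CPM in brain against 6.49 ± 0.895 (log2 fold change 1.05, SE 0.161, edgeR adjusted p = 0.00620). The lower genes included BLK, a Src family kinase of B cells, at 64.5 ± 3.72 against 110 ± 10.7 CPM (log2 fold change -0.76). They also included CD79A, a signalling chain of the B cell receptor (-0.61), and the inhibitors PTPN6 (-0.71), a phosphatase, and CSK (-0.43), a kinase that restrains Src family members. SYK, at 337 ± 17.4 CPM against 368 ± 23.5 in spleen, was far more abundant in CPM than ZAP70 and did not pass (log2 fold change -0.13, edgeR adjusted p = 0.481). CD79A lost its call without brain replicate 1 (adjusted p = 0.0816) and CSK when any single library was removed (up to 0.132). With the mouse share as a covariate 0 of the list passed, and 3 passed without brain replicate 1.

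CASP8AP2 lies on chromosome 6 (ENSG00000118412, 89829894 to 89874436, forward strand). Its counts were 3734, 3813 and 3489 in brain and 2733 and 4706 in spleen, or 95.7, 77.0 and 77.5 CPM against 62.3 and 93.4. The 2 spleen libraries lay on either side of brain replicates 2 and 3. The log2 fold change was 0.099 (SE 0.172, edgeR adjusted p = 0.782), with a 95% interval of the fold from 0.817 to 1.40. It was 0.42 when spleen replicate 2 was removed, -0.17 when spleen replicate 1 was, and 0.69 with the mouse share as a covariate (adjusted p = 0.196), and the gene did not pass in any of these.

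All 17 genes listed for death signalling and histone RNA processing were tested (median log2 fold change -0.0043). Of these 1 was higher, 2 were lower and 14 did not pass, against 6.01% higher and 3.5% lower over all genes tested. The 3 that passed belong to histone RNA processing. ZNF473, a zinc finger protein of the U7 particle, had 27.4 ± 0.645 CPM in brain against 21.03 ± 0.0287 (log2 fold change 0.38). LSM10, a core protein of the same particle, and CSTF2, a cleavage factor subunit, had log2 fold changes of -0.50 and -0.36. Each of these 3 calls was lost without any 1 of the 5 libraries, and those of ZNF473 and CSTF2 also with the replicate block (adjusted p = 0.0698 and 0.0707). Removing spleen replicate 2 left 1 call in the list, TNFRSF10B, and removing any other single library, or fitting the mouse share, left 0. Of the death signalling genes, the death receptor TNFRSF10B had the largest log2 fold change in the list, 0.68 (edgeR adjusted p = 0.0565). It passed without spleen replicate 2 (adjusted p = 0.00597), with the replicate block (0.0387), without a filter on low counts, by DESeq2 and on the authors' log2 values. CASP8, FADD and CFLAR did not pass, with log2 fold changes of 0.090, -0.099 and 0.084.

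NOTCH1 lies on chromosome 9 (ENSG00000148400, 136494433 to 136546048, reverse strand). It was the most abundant of the 6 in CPM, in the 92.4th percentile of tested genes. The brain libraries held 6184, 10286 and 7176 counts and the spleen libraries 3939 and 4720, which is 158, 208 and 159 CPM against 89.7 and 93.6. The lowest brain library lay above the highest spleen library. With means of 175 ± 28.2 and 91.7 ± 2.75 CPM, the log2 fold change was 0.93 (SE 0.137, edgeR adjusted p = 0.00517), a fold of 1.91 with a 95% interval of 1.54 to 2.37. The call was kept whichever single library was removed (highest adjusted p 0.0233) and was lost with the mouse share as a covariate (log2 fold change 0.78, adjusted p = 0.213).

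Of 35 Notch pathway genes 31 were tested (median log2 fold change 0.11). Among them 6 were higher, 1 was lower and 24 did not pass, against 6.01% higher and 3.5% lower over all genes tested. By role, the higher genes included 1 of 4 receptors, which is NOTCH1 itself, 1 of 5 ligands, 2 of 4 nuclear partners and 1 of 3 inhibitors. FBXW7, part of the ubiquitin ligase that marks the released NOTCH1 tail for degradation, was higher, at 107 ± 4.52 CPM in brain against 39.0 ± 0.472 (log2 fold change 1.45, SE 0.0970, edgeR adjusted p = 0.000138). MAML2, a Mastermind coactivator, had 45.7 ± 2.97 against 28.5 ± 2.79 CPM, and RBPJ, the DNA-binding partner, at 149 ± 3.56 against 109 ± 4.33. DLL4, a ligand, had a log2 fold change of 0.70. MFNG, a glycosyltransferase that modifies Notch receptors, was lower, with a log2 fold change of -0.42.

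None of the 4 tested Notch target genes passed by edgeR (DTX1, HEYL, NRARP and MYC), and HES1, HES4, HEY1 and PTCRA were too low to test. DTX1, the most abundant of the 4, had 320 ± 10.97 CPM in brain against 368 ± 7.85 (log2 fold change -0.20, edgeR adjusted p = 0.222). HES1 had 0, 3 and 5 counts in brain and 0 and 0 in spleen, and HES4 had 0 in all. NOTCH2, at 29.7 ± 2.31 against 38.0 ± 5.81 CPM, had a log2 fold change of -0.36 and did not pass (edgeR adjusted p = 0.109). Matching of transcript identifiers was checked for the 6 genes only, not for FBXW7 or MAML2. Summed transcript estimates, which leave out unmatched transcripts, gave FBXW7 a log2 fold change of 0.57 and MAML2 one of 0.66. FBXW7 kept its call there, without any 1 library, with the replicate block and with the mouse share (adjusted p = 0.0126), and MAML2 kept it without any 1 library. RBPJ lost its call when any single library was removed. DLL4 and MFNG each lost theirs in 4 of 5 such fits, and DLL4 also under the replicate block (adjusted p = 0.0634). Calls in the list fell to 4, 3 and 3 without brain replicates 1, 2 and 3, to 4 without spleen replicate 1, and to 1 with the mouse share.

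**Figure D4:**
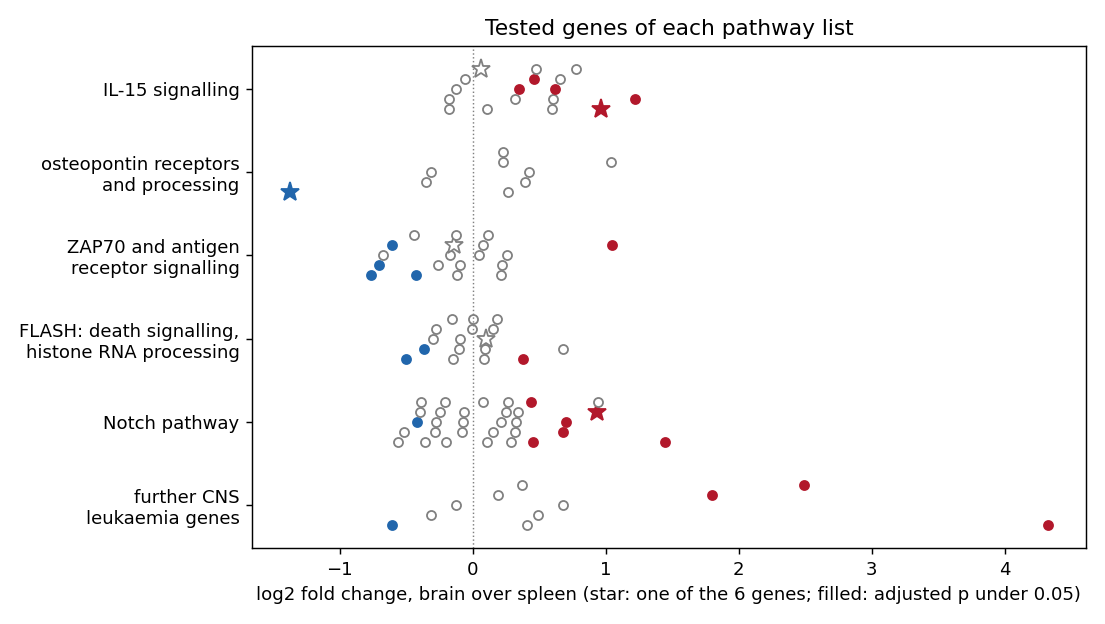
Log2 fold change, brain over spleen, of each tested gene in 6 pathway lists, with a star for the 6 genes described here, filled red or blue points for genes higher or lower at an adjusted p under 0.05, and open points for the rest. Calls are mostly upward in the interleukin 15 and Notch lists and mostly downward in the ZAP70 list. Over all genes tested, 1228 calls were upward and 714 downward.

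A further 12 genes tied to CNS leukaemia were set beside these 6, and 11 were tested. VEGFA, SCD and the laminin receptor gene ITGA6 were higher, CD79A was lower and 7 did not pass, with a median log2 fold change of 0.41. Over all genes tested, 9.51% passed in both directions together. This list was chosen with earlier results of these data known, so its calls are not independent support for earlier reports. ITGA6 had 10.2 ± 1.53 CPM in brain against 1.81 ± 0.438 (log2 fold change 2.49, SE 0.227, edgeR adjusted p = 0.000546). This is larger than the change of any of the 6 genes, and it was kept with the mouse share as a covariate (adjusted p = 0.0265), as was that of VEGFA (0.00481), while the calls of SCD (0.105) and CD79A (0.169) were lost.

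Set per kilobase of the canonical transcript, the order of the 6 genes was not the same at both sites. In brain NOTCH1 came first at 18.3 CPM per kilobase, then CASP8AP2 at 13.7, ZAP70 at 9.79, IL15RA at 3.31, IL15 at 1.21 and SPP1 at 0.704. The brain libraries of CASP8AP2 (12.7 to 15.7) and ZAP70 (6.86 to 12.7) touched, while the other neighbours were apart. In spleen CASP8AP2 at 12.8, ZAP70 at 10.8 and NOTCH1 at 9.58 came first, then IL15RA at 3.17, SPP1 at 1.82 and IL15 at 0.618. The spleen libraries of CASP8AP2 (10.2 and 15.3) enclosed those of ZAP70 (10.7 and 10.9), and all other neighbours were apart. By these lengths SPP1 and IL15 exchanged places between the sites.

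For each gene the 3 profiles nearest to its own were found among 12853 genes, as the Euclidean distance between centred log2 CPM values over the 5 libraries. Nearest to NOTCH1 were ENG (distance 0.081), SEMA4A and KCNAB2, with log2 fold changes of 0.97, 0.91 and 0.89. Nearest to IL15 were SLC37A1 (0.085), the non-coding ENSG00000269155 and MDGA2, with log2 fold changes of 0.92, 0.99 and 1.01. SPP1 had more distant neighbours, PDGFA (0.35), NPY and CXXC5, with log2 fold changes of -1.55, -1.07 and -1.26. EDEM2, PTOV1 and VPREB3 were nearest to IL15RA, CSPG4P12, TCN2 and DERL3 to ZAP70, and ZNF569, ENSG00000279185 and ETAA1 to CASP8AP2. The neighbours of these last 3 genes had log2 fold changes between -0.18 and 0.13.

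The mouse share of the libraries moved with site, from 2.58% to 5.70% in brain and from 6.33% to 8.87% in spleen, and the levels of the 3 genes that passed are plotted against it. With it as a covariate, an alternative chosen after the data were seen, none of the 3 passed by edgeR (adjusted p = 0.213 for NOTCH1, 0.327 for IL15 and 0.396 for SPP1), and 125 genes passed in all, against 1942 without it. Beyond that fit its part in these results was not tested.

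**Figure D5:**
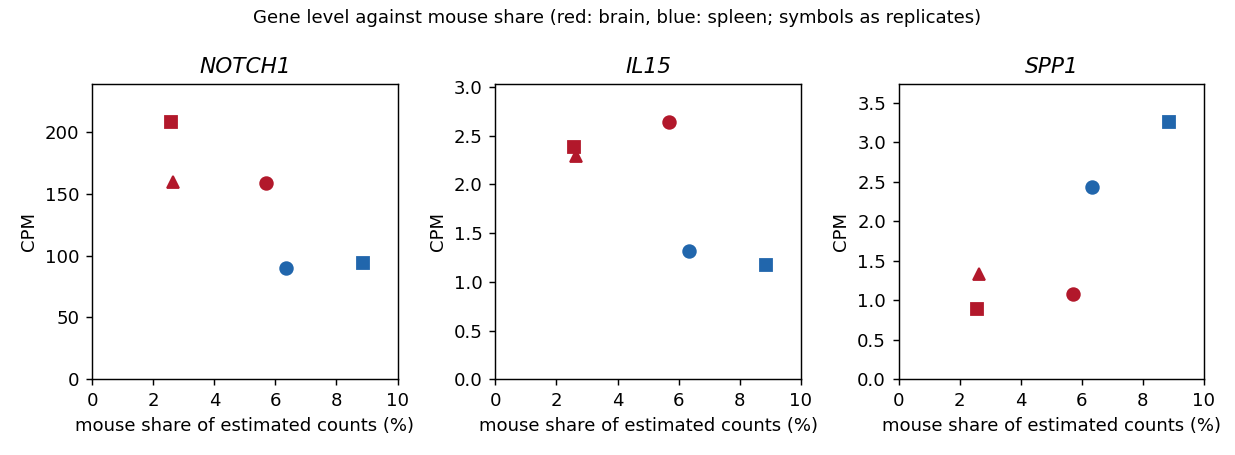
Level of NOTCH1, IL15 and SPP1 in CPM (vertical axes from 0) against the mouse share of estimated counts in each brain (red) and spleen (blue) library. All 3 brain libraries lie at or below 5.70% mouse share and both spleen libraries at or above 6.33%.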

How the data were processed

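RNA of REH cells from brain (3 libraries) and spleen (2 libraries) was sequenced with a stranded mRNA kit, per the labels' protocols. Builds GRCh38 and GRCm38 and the tools kallisto 0.42.4, cutadapt 1.5, bcl2fastq 1.8.4 and DESeq2 are listed, without order or role, in the submitters' processing notes. The authors deposited expected (estimated) counts per gene, written as whole numbers, and per-library kallisto tables with estimated counts and TPM for human and mouse transcripts. TPM values deposited there were not used for any result. The authors' deposited log2 (rlog) values served as an alternative, and 1 column that belongs to no sample was not used. Strand use in counting is not given in the sources used here. Reads of SPP1 and NOTCH1 may therefore include some from overlapping genes on the other strand. Overlap was taken over whole gene spans, not exons, so whether counted sequence is shared was not tested. IL15RA, CASP8AP2 and NOTCH1 also overlap short or non-coding genes on their own strand, which strand would not resolve.

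Identifiers were matched to GENCODE 44, which covered 99.76% of counts. Gene counts were fitted with edgeR 4.0.16 in R 4.3.3 (filterByExpr, TMM, quasi-likelihood F test, origin site as the only term), with Benjamini-Hochberg adjustment over 20419 genes. Changes are brain over spleen, SE is on the log2 scale, and 95% intervals use the moderated degrees of freedom. On simulated counts for this comparison (20301 genes), 94% of 4-fold and 69% of 2-fold changes were recovered. The simulation gave every gene the same dispersion and changed genes drawn at random over all levels. Recovery for low genes such as IL15 and SPP1, or variable ones such as ZAP70, was not measured. Limma 3.58.1 and DESeq2 1.42.0 were alternatives.

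Members and lists were chosen with earlier results of these data known. Named genes were the 6 members, list genes with the smallest p (3 per list, or all called in 1 direction where 5 or fewer), SYK, NOTCH2, IL2RB, IL2RG and CD44. Other list genes, such as RBPJ, DLL4, JAK1, JAK3, the Notch targets, the integrins, TNFRSF10B, CASP8, FADD, CFLAR, MCL1, CISH, PIM1 and CD247, were named after their values were seen. One gene of the Notch list is counted but not reported here by name. Replicate numbers stand for occasions of preparation in the labels' protocols, which pairs brain and spleen replicates 1 and 2. Deviations from group means correlated at -0.023 and 0.13 over genes within these pairs, and at 0.133 between brain replicate 3 and spleen replicate 1, which are not paired. The deviations of 2 spleen libraries are exact opposites, so these correlations cannot show whether the pairing holds. The spleen columns carry the numbers 2 and 4 where the titles give 1 and 2, and the titles were used. If the column numbers mark the occasion instead, the blocked values and correlations rest on other pairs than stated, and since only 1 number would then be shared no blocked fit could be made. Nothing states that libraries of one group came from separate cultures. Retired transcript identifiers left NOTCH1 without an isoform estimate.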

Additional observations from a re-analysis of the deposited data

How the results depend on the processing

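NOTCH1, IL15 and SPP1 kept their direction in every alternative run. Other scalings, filters, tests, summed transcripts (not run for NOTCH1) and the replicate block changed none of their calls. On the authors' log2 (rlog) values their log2 fold changes were smaller, at 0.59, 0.42 and -0.61. Mean rlog levels rose by 0.999 per log2 unit of normalised count over 7821 abundant genes. That slope compares genes and does not measure differences between libraries. The cause of the smaller changes was not tested. Leaving out 1 library gave log2 fold changes of 0.79 to 1.003 for NOTCH1, 0.88 to 1.047 for IL15, -1.573 to -1.151 for SPP1, -0.0085 to 0.147 for IL15RA, -0.38 to 0.057 for ZAP70 and -0.17 to 0.42 for CASP8AP2. It gave 1 to 2 calls for interleukin 15 signalling, 0 to 1 for osteopontin, 3 to 4 for ZAP70 signalling, 0 to 1 for FLASH, 3 to 5 for Notch, 3 to 6 for the further CNS genes and 661 to 1699 for all genes. Fewer libraries also leave fewer residual degrees of freedom.

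The replicate block pairs occasions, and brain replicate 3, which has no spleen partner, does not bear on its site change. With this block log2 fold changes were -0.00597 for IL15RA, 0.0495 for ZAP70 and -0.52 for CD44. The calls of STAT5B, ZNF473, CSTF2 and DLL4 were among those lost, while JAK3 and TNFRSF10B gained one. With the mouse share as a covariate, chosen after seeing the data, log2 fold changes were 1.035 for IL15, -0.24 for IL15RA, -1.14 for SPP1 and 0.78 for NOTCH1. List calls were then 1, 0, 0, 0, 1 and 2 in the order above, and 125 genes passed in all; site and mouse share vary together, and the cause was not tested. Without a filter on low counts 3 osteopontin genes and 3167 of all genes passed, and limma-voom called 1 FLASH gene. Leaving out 1 library moved CD44 between -0.58 and 1.705, with -0.58 without brain replicate 3 and -0.23 without spleen replicate 1. Summed transcripts gave FBXW7 a log2 fold change of 0.57, without a check that all its transcripts were matched. Counts below about 100 per library limit IL15 and SPP1, and the isoform values most.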
